A study of Mus musculus with 4 samples.

Results

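The glycan transferase families described here are 13 groups of mouse genes, recognised by symbol, whose enzymes build the sugar chains of glycoproteins, mucins and glycolipids or add sulfate to them. Members were all genes whose GENCODE vM21 symbol begins with St3gal, St6gal, St8sia, B3galt, B3galnt, B3gnt, B4galt, B4galnt, Galnt, Gcnt, Fut, Chst or Mgat followed by a digit or a letter. St3gal5, St6galnac6, B3galt5 and B4galnt1 were left out by the same rule. It found 103 members among the 55487 genes in the files, and 100 of them are annotated as protein-coding. The other three are the antisense genes Galnt6os and St8sia3os and the pseudogene Fut4-ps1, and St6galnac2 is present under 2 gene IDs.

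Poly(A)-selected RNA was sequenced from crypt cells of untreated mice of 6 to 12 weeks that carry Lgr5-EGFP-IRES-creERT2, a green reporter driven by the stem cell gene Lgr5. Stem cells of the large intestine (LISC) were the reporter-positive cells of the stretch between cecum and rectum, with no CD24 gate named. Those of the small intestine (SISC) were the reporter-positive cells without CD24 from small intestine, for which the design names distances of 2 to 3 cm from pylorus and from cecum. As described, CD24 gate and region differ together between the groups, and their parts in a difference cannot be told apart. Each group held 2 libraries. Whether the replicates are different animals is not stated in the labels, and p-values therefore cover the spread among these 4 samples alone, which may be technical.

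Most transferases of these families sit in the Golgi, where each adds 1 sugar or sulfate in a fixed linkage to a growing chain. O-glycans of mucins start with N-acetylgalactosamine (GalNAc) on serine or threonine, and are then built into cores, branched, extended and capped with fucose, sialic acid or sulfate. In the mouse intestine such chains make up much of the mucus and of the coat on the epithelial surface, and their cores and caps are known to differ along the gut. N-glycans, attached to asparagine, are trimmed and then branched by the Mgat enzymes, and share the later extension and capping enzymes.

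Total counts were 12795434 and 24142212 in LISC replicates 1 and 2, and 16490485 and 27227715 in SISC replicates 1 and 2. Nuclear rRNA took 28.5% of the counts in LISC replicate 1 and 24.1% in SISC replicate 1, but 0.0997% in LISC replicate 2 and 0.0917% in SISC replicate 2, a split of the libraries by replicate number. Differences within each replicate number, between single libraries and without a test, are therefore given beside called members that had counts in SISC. Lgr5 itself was read at 147 and 89.7 CPM, a count relative to the TMM-scaled library total, in LISC and at 114 and 173 CPM in SISC. The 7 stem cell markers summed to 902 and 677 CPM in LISC and to 8920 and 13743 CPM in SISC, of which Olfm4 alone was 91.5 and 108 CPM in LISC and 7765 and 12472 CPM in SISC, where it was called higher (edgeR adjusted p = 0.0269). Marker lists of several other cell types differed between the groups. The 10 goblet cell markers, all with a log2 difference above 0, summed to 3621 and 5932 CPM in LISC and to 2106 and 459 CPM in SISC, and the 7 Paneth cell markers to 53.7 and 27.0 CPM in LISC and to 8938 and 1458 CPM in SISC. The 6 tuft cell markers summed to 82.6 and 126 CPM in LISC and to 21.5 and 4.50 CPM in SISC, and 6 colonocyte markers to 357 and 1413 CPM in LISC and to 103 and 41.8 CPM in SISC, with the colonocyte genes Car1 and Aqp8 at 0 counts in SISC. The 8 small-intestinal enterocyte markers, 7 of them with a log2 difference below 0, summed to 136 and 204 CPM in LISC and to 395 and 272 CPM in SISC. Sums of the 8 enteroendocrine markers overlapped between the groups, with 79.4 and 110 CPM in LISC and 177 and 29.8 CPM in SISC. Of these markers, Sct was called higher in LISC (log2 difference 4.61, edgeR adjusted p = 0.0447). Cck was higher in both SISC libraries but was not called (log2 difference −3.93, edgeR adjusted p = 0.213). The other markers of this list overlapped between the groups. Leukocyte markers summed to at most 8.28 CPM in any library, and endothelial markers to at most 0.312 CPM.

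In the comparison of LISC with SISC, 6 members rose in LISC, of the core and branch, beta-1,3, fucose, sialic acid and sulfate groups. Gcnt3, which branches mucin cores, was 20.1-fold higher, and B3gnt6, which makes core 3, 157-fold higher in the fit, with 0 and 4 counts in SISC. B3galt2, a galactosyltransferase of chain ends, was at least 42.8-fold higher, and Fut9, which makes Lewis x, at least 34.5-fold higher. St6gal1, which adds sialic acid, was 13.2-fold higher, and Chst4, which adds sulfate to N-acetylglucosamine, 23.0-fold higher. These 6 were 9.68% of the 62 members tested by edgeR's quasi-likelihood test, where 1.45% of all 14165 genes tested were called higher in LISC at an adjusted p below 0.05. No member was called higher in SISC, against 0.741% of all genes; 5 members had an unadjusted p below 0.05 in that direction in edgeR, and DESeq2 called 2 (all genes 1.60%). The other 41 members did not pass the filter on low counts, 14 of them with 0 counts in every library and 27 with at most 24 counts in any library. Members with few reads could pass the filter only where 1 group was high, so these shares describe the members tested and not all members. The count of 6 was 2 without LISC replicate 2, where all genes gave 1.14%, and 12 without SISC replicate 1, where all genes gave 2.21%. DESeq2 called 18 members higher in LISC (all genes 3.20%), and edgeR without the filter called 19 (all genes 3.92%) with 5 higher in SISC (all genes 1.94%). Beyond the 6, DESeq2 called Galnt4, Galnt12, Galntl6, Gcnt1, B3gnt5, B4galt1, B4galt4, Fut1, Fut4, Chst8, Chst15 and Mgat4c higher in LISC, and Gcnt2 and Gcnt4 higher in SISC. EdgeR without the filter called the same members except Galnt4 and Chst15, and also Fut2, Galnt5 and St6galnac4 higher in LISC and St3gal4, St3gal6 and Chst2 higher in SISC.

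**Figure D1:**
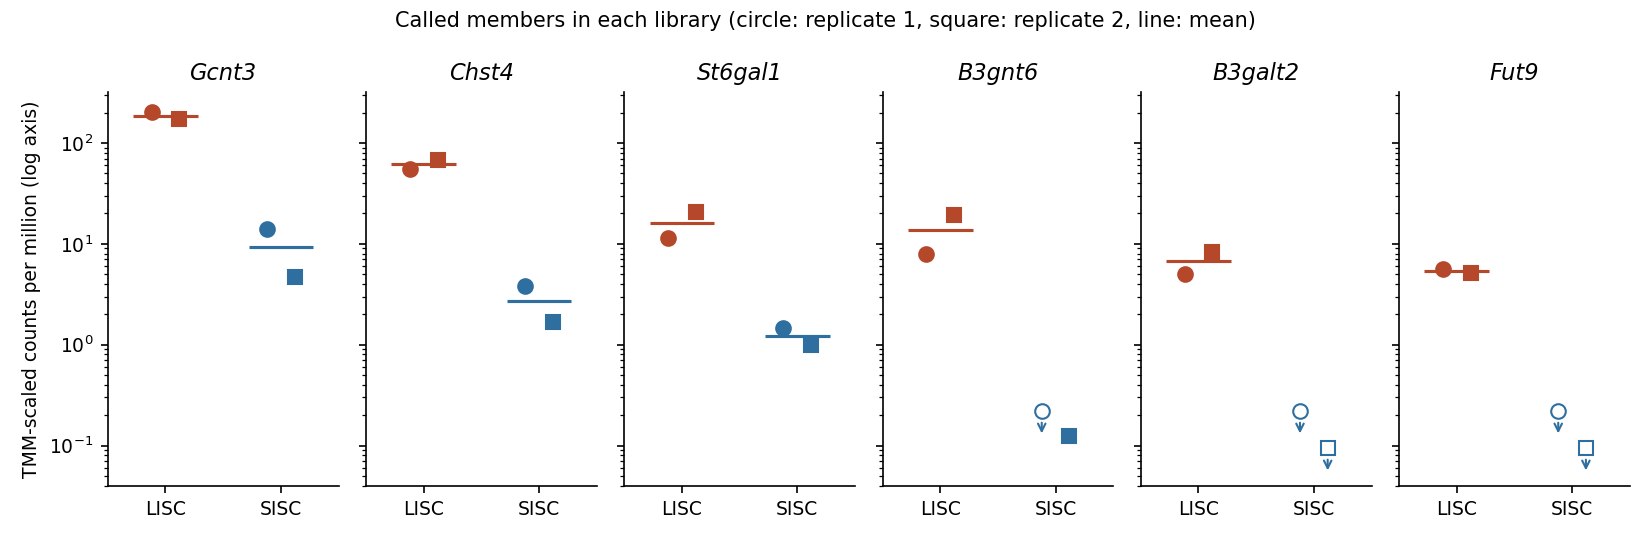
Level of the 6 called members in each library, in TMM-scaled CPM on a log axis, with LISC to the left of SISC. Circles are replicate 1, squares replicate 2 and lines the group means, and open symbols with an arrow mark libraries at 0 counts, drawn at the level of 3 counts. All 6 have both LISC libraries above both SISC libraries, and Fut9 and B3galt2 had no count in SISC.

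On GRCm38, in the GENCODE vM21 annotation, Gcnt3 (ENSMUSG00000032226) lies on chromosome 9 from 70031496 to 70038088 on the minus strand, and B3gnt6 (ENSMUSG00000074004) on chromosome 7 from 98192417 to 98199481 on the minus strand. B3galt2 (ENSMUSG00000033849) lies on chromosome 1 from 143640664 to 143654614 on the plus strand, and Fut9 (ENSMUSG00000055373) on chromosome 4 from 25609332 to 25800244 on the minus strand. St6gal1 (ENSMUSG00000022885) lies on chromosome 16 from 23224740 to 23360350 on the plus strand, and Chst4 (ENSMUSG00000035930) on chromosome 8 from 110029153 to 110039740 on the minus strand.

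Promoter windows, from 250 bases before to 50 after a RefSeq start site on GRCm38.p6, were on hand for 77 member symbols and for 3 of the 6 called members, and are shown for 3 starts because these called genes were low or at 0 in SISC. They were searched on both strands for 5 short motifs chosen after the files were seen, namely GATAAG for the GATA factors, TTTATG for the CDX factors, ATCAAAG for the TCF factors, CAAAGT for a part of the sites of HNF4, and TGTTTAC for the FOX factors, of which the TCF and HNF4 letters can overlap. Capitals mark a match, here CATAAA, which is TTTATG on the other strand. The windows lie at chr8:110039285-110039584 on the minus strand for Chst4, at chr16:23224490-23224789 on the plus strand for the first of 3 St6gal1 windows, and at chr1:143640447-143640746 on the plus strand for B3galt2.
Chst4: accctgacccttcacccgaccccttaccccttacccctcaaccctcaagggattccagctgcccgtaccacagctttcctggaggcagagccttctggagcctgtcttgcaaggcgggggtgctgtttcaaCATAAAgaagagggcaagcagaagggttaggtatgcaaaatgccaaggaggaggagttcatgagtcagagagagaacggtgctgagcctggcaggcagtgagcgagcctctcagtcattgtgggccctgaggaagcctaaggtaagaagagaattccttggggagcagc
St6gal1: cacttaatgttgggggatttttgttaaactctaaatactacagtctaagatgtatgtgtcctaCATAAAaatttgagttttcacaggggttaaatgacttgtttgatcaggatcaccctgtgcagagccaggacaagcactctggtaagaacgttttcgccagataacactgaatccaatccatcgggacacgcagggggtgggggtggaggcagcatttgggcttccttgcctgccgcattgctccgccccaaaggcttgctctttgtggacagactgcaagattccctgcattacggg
B3galt2: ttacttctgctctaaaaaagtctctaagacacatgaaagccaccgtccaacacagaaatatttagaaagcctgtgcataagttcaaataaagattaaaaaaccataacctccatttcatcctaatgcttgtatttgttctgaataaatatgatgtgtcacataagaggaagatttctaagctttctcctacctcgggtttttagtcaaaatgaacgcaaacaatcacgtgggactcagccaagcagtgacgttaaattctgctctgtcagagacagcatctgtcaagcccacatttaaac
Chst4 held 1 match, 119 bases before the start site, and the first St6gal1 window held 1, 187 bases before it. B3galt2 and the other St6gal1 windows held no match to these letters. TTTATG was in 11.9% of all 32851 promoters and in 5.88% of the 102 promoters of members, GATAAG in 7.44% of all and 4.90% of members, and CAAAGT in 14.4% of all and 12.7% of members. ATCAAAG was in 3.73% of all promoters and TGTTTAC in 3.65%, and each was in 0.98% of those of members.

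Across the 62 tested members, 40 had a log2 difference above 0 (64.5%, against 48.0% of all genes), and the median was 0.65, against −0.02 for all genes. Levels in the LISC libraries lay above those of both SISC libraries for 32 members (51.6%, all genes 21.9%), and below them for 9 members (14.5%, all genes 18.4%). At an unadjusted p below 0.05, 22 members were higher in LISC (35.5%, all genes 8.73%) and 5 were lower in LISC (8.06%, all genes 4.67%). RNA levels in sorted bulk samples cannot tell fewer cells of a type from less RNA per cell, and this holds for each difference given here.

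**Figure D2:**
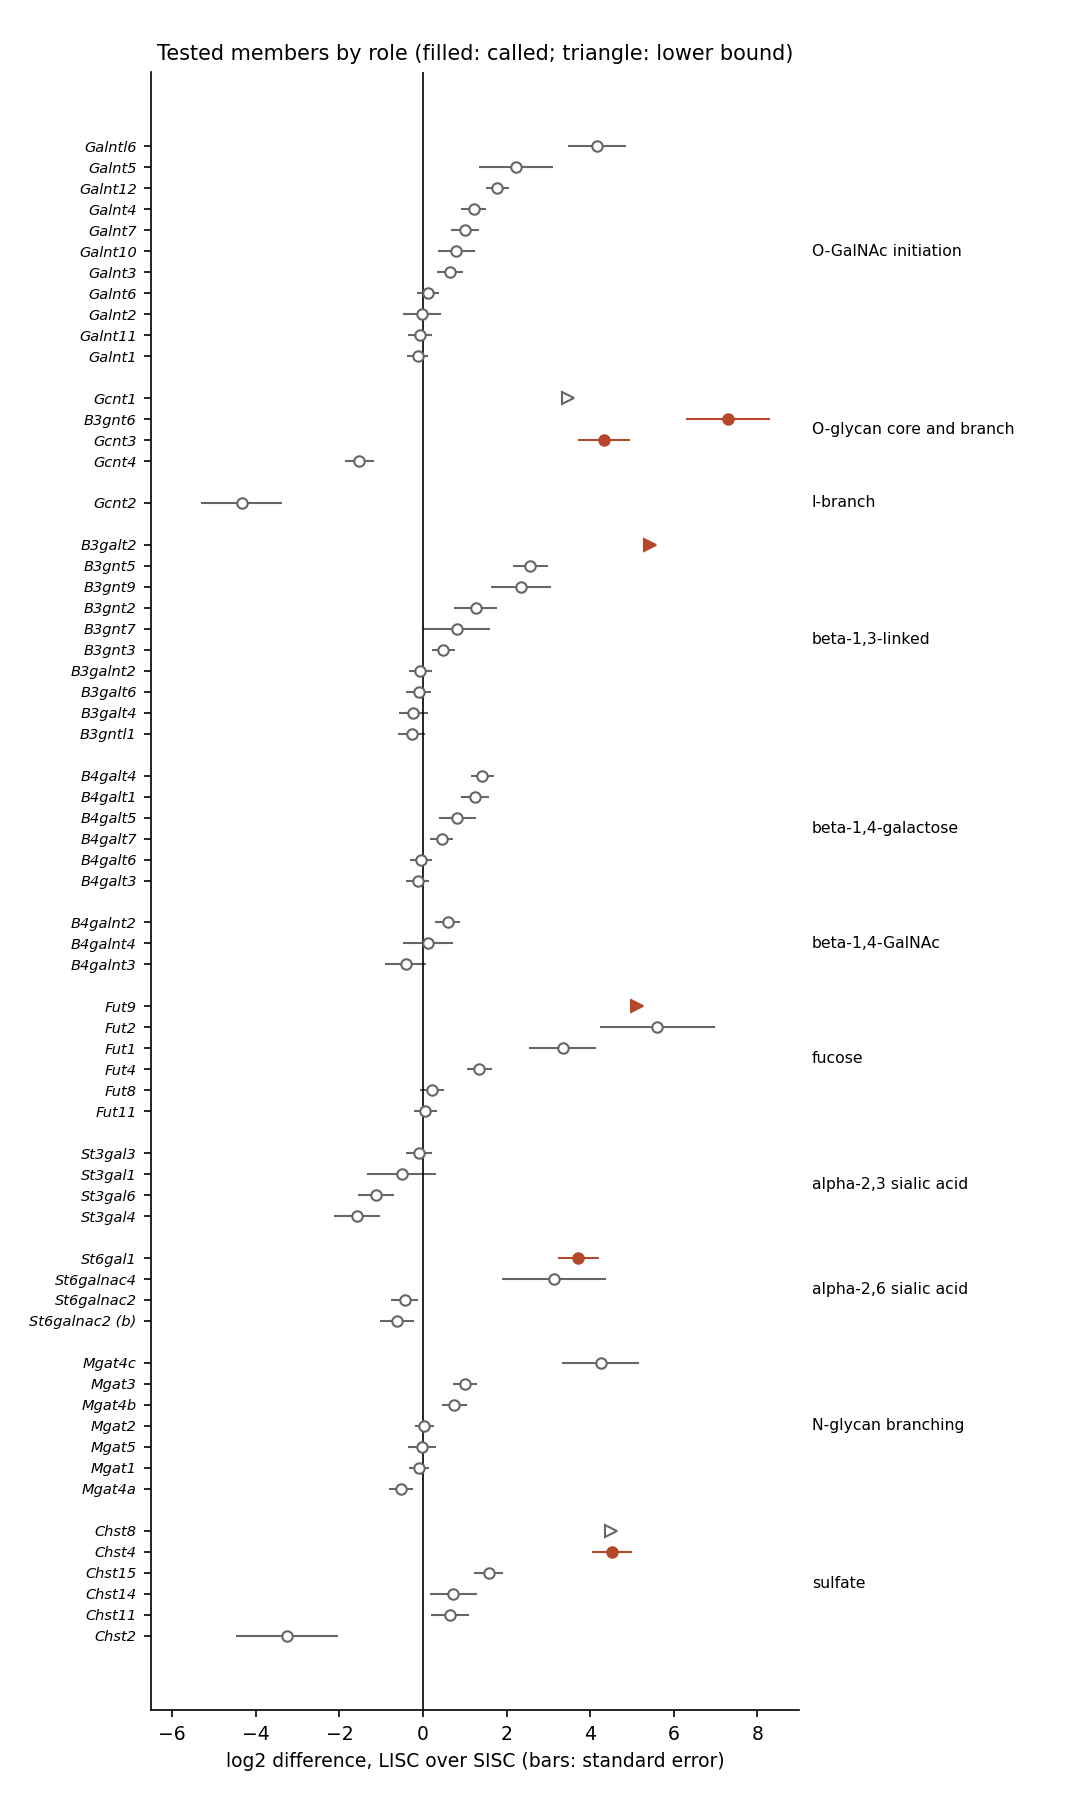
Log2 difference of LISC over SISC for the 62 tested members, grouped by role. Points are edgeR estimates with standard errors, filled symbols passed an adjusted p below 0.05, and triangles are lower bounds for genes with 0 counts in SISC. Mgat1, Mgat2 and Mgat5 sit near 0, with Mgat3 at 1.01, Mgat4b at 0.75 and Mgat4a at −0.52. Of the O-GalNAc initiation group, Galnt1, Galnt2, Galnt6 and Galnt11 sit near 0. The other tested members of that group lie to the right, and the group median was 0.80. The core, beta-1,3, fucose and sulfate groups, with Galntl6 and Mgat4c, reach beyond 4 to the right. Gcnt2 and Chst2 lie farthest to the left.

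The first step of a mucin O-glycan is catalysed by the polypeptide GalNAc-transferases, the Galnt family. Of its 20 members 11 were tested, and 0 passed an adjusted p below 0.05 in edgeR with the filter on low counts. An unadjusted p below 0.05 was reached by 4, all higher in LISC (all genes 8.73%). DESeq2 called Galnt12, Galnt4 and Galntl6 of these, and edgeR without the filter called Galnt12, Galntl6 and Galnt5. Galnt12, the member with the highest mean level per length, was read at 95.1 and 119 CPM in LISC and at 32.2 and 30.2 CPM in SISC. Its groups did not overlap, and its log2 difference of 1.78 ± 0.27 (SE) had an edgeR adjusted p of 0.0546, just short of the threshold. Within replicate numbers 1 and 2 it was 1.56 and 1.97. Galnt4, an enzyme that also acts on partly glycosylated peptides, was read at 137 and 186 CPM in LISC and at 66.8 and 71.8 CPM in SISC (log2 difference 1.22 ± 0.30, edgeR adjusted p = 0.150). Galnt4 shares 420 of its 5089 exon bases with Poc1b on the same strand, so reads there could count for either. Galnt7, another enzyme that prefers glycosylated peptides, was read at 106 and 140 CPM in LISC and at 73.4 and 48.4 CPM in SISC (log2 difference 1.01 ± 0.34, edgeR adjusted p = 0.290). Both genes were higher in each LISC library than in either SISC library. Galntl6 was low in all libraries, with 32 and 166 counts in LISC and 3 and 8 counts in SISC (log2 difference 4.17 ± 0.69, edgeR adjusted p = 0.0642). The broadly expressed Galnt1 and Galnt2 had log2 differences of −0.12 and −0.02. The value of Galnt2 is uncertain, since 3854 of its 4282 exon bases are shared with Gm20388 on the same strand.

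Core and branch enzymes act next, and 2 of the 6 called members belong to them. Gcnt3, which makes the core 2 and core 4 branches of mucins, was read at 203 and 171 CPM in LISC and at 14 and 4.69 CPM in SISC. Both LISC libraries lay far above both SISC libraries, and the SISC libraries differed from each other by more than the LISC libraries did. The log2 difference of 4.33 ± 0.63 had an edgeR adjusted p of 0.0494, and it was 3.85 and 5.18 within replicate numbers 1 and 2. It was 5.31 without SISC replicate 1 and 3.71 without SISC replicate 2. The call of Gcnt3 was lost with size factors of DESeq2 in place of TMM (log2 4.29, edgeR adjusted p = 0.0584) and with rRNA genes removed (log2 4.31, adjusted p = 0.0534). B3gnt6, the core 3 synthase, gives Gcnt3 the substrate for core 4. It had 85 and 562 counts in LISC and 0 and 4 counts in SISC, which is 7.88 and 19.3 CPM in LISC and 0 and 0.125 CPM in SISC. SISC was at or next to 0, and the log2 difference was 7.29 ± 1.0 (edgeR adjusted p = 0.0431) and 7.10 within replicate number 2. Without LISC replicate 2 the B3gnt6 difference was 6.56 and its call was lost (edgeR adjusted p = 0.0551). With SISC replicate 1 left out the B3gnt6 difference was 6.71. With SISC replicate 2 left out, which held all 4 SISC counts, the fitted 10.93 rests on a group at 0 and is no bound.

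The remaining branch enzymes were less abundant. Gcnt1, the core 2 enzyme known from leukocytes and many other tissues, had 10 and 73 counts in LISC and 0 in both SISC libraries, which makes it at least 11-fold higher in LISC, with an edgeR adjusted p of 0.117. Gcnt4, a further core 2 enzyme, was read at 3.43 and 4.16 CPM in LISC and at 12.1 and 9.81 CPM in SISC (log2 difference −1.52 ± 0.35, edgeR adjusted p = 0.126). Its groups did not overlap, with SISC above LISC. Gcnt2, which makes the I-branches of poly-N-acetyllactosamine chains, had 4 and 2 counts in LISC and 61 and 110 counts in SISC (log2 difference −4.34 ± 0.96, edgeR adjusted p = 0.12). Without LISC replicate 1 the Gcnt2 difference was −5.74, and without LISC replicate 2 it was −3.37. DESeq2 called both Gcnt2 (DESeq2 adjusted p = 0.000468) and Gcnt4 (DESeq2 adjusted p = 0.0249) higher in SISC, as did edgeR without the filter. In TPM, the deposited transcript level per length, totals of the replicate 1 libraries are lowered by their rRNA, while shares within a library are not. The 5 core and branch members summed to 33.8 and 65.8 TPM in LISC and to 4.13 and 3.76 TPM in SISC. Gcnt3 held 91.5% and 80.2% of that sum in LISC and 58.1% and 35.6% in SISC. B3gnt6 held 6.78% and 17.1% in LISC and 0% and 1.86% in SISC, and Gcnt4 held 1.30% and 1.64% in LISC and 41.9% and 62.5% in SISC. Gcnt3 was the largest member in both LISC libraries and in SISC replicate 1, and Gcnt4 in SISC replicate 2.

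**Figure D3:**
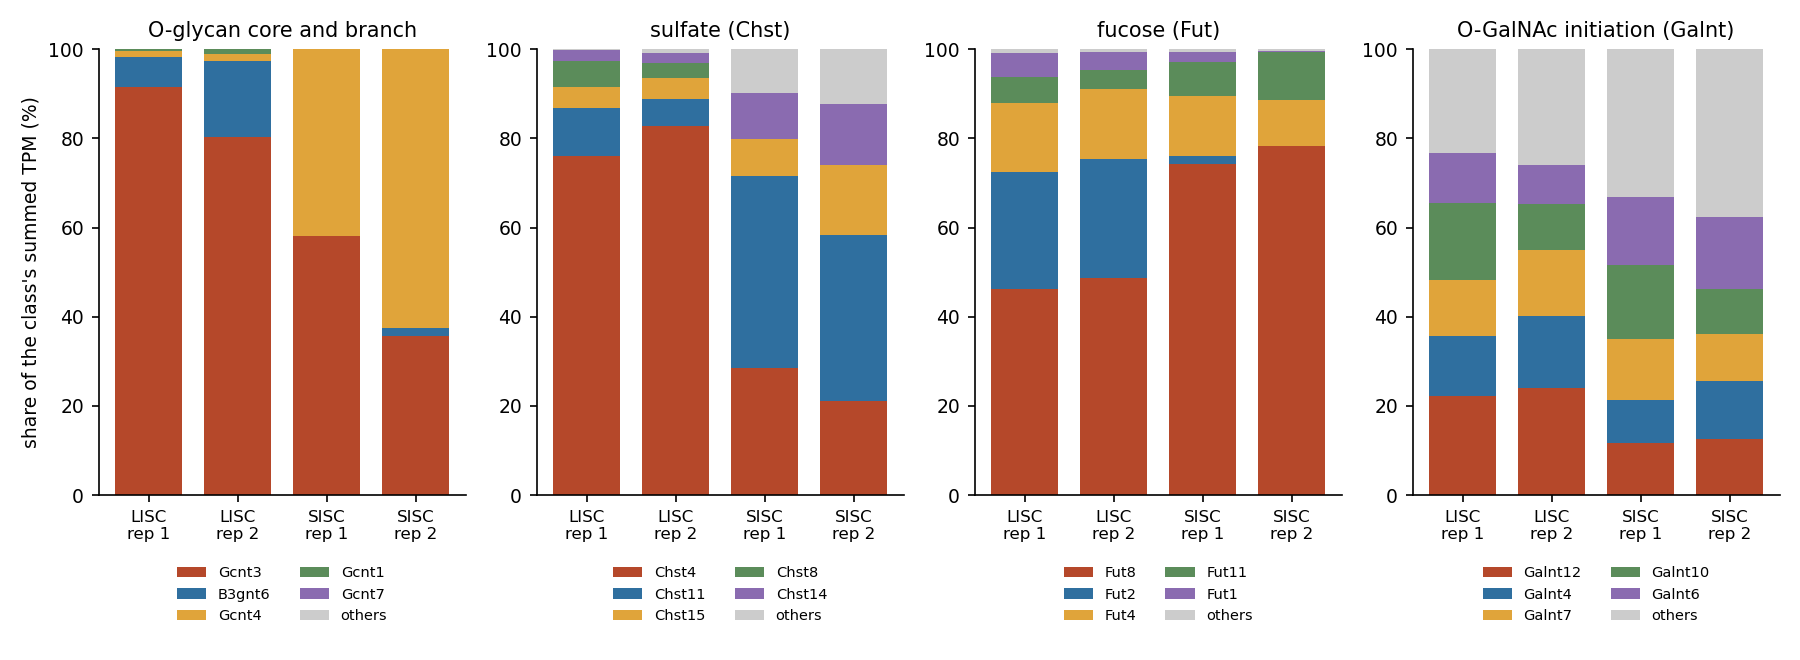
Share of the summed TPM of 4 role groups held by each member, in percent, for LISC replicates 1 and 2 and then SISC replicates 1 and 2. Colours are the 5 members with the highest mean TPM and grey the others. Gcnt3 and B3gnt6 fill most of the core and branch group in LISC, Chst4 holds 76.0% and 82.7% of the sulfate group in LISC and 28.5% and 21.2% in SISC, and Fut2 holds 26.2% and 26.7% of the fucose group in LISC and 1.93% and 0.0267% in SISC.

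Chains are extended by beta-1,3- and beta-1,4-linked N-acetylglucosamine (GlcNAc), galactose and GalNAc. B3galt2, which adds beta-1,3-linked galactose to GlcNAc to form type 1 chains, was read at 5.0 and 8.35 CPM in LISC, from 54 and 243 counts, and had 0 counts in both SISC libraries. Against the level of 3 counts in each SISC library, 0.218 and 0.0937 CPM, its LISC level was higher by at least 42.8-fold, with an edgeR adjusted p of 0.0410. Without LISC replicate 2 the call was lost (edgeR adjusted p = 0.0643). B3galt2 shares 679 of its 9288 exon bases with Cdc73 on the opposite strand, which was read at 37.8 and 42.3 CPM in LISC and at 44.1 and 35.2 CPM in SISC. The library kit keeps strand, but how strand entered the counting is not stated in the labels or files. B3gnt5, which makes the GlcNAc extension of lacto-series glycolipids, was read at 8.52 and 12.0 CPM in LISC and at 1.75 and 1.72 CPM in SISC (log2 difference 2.57 ± 0.41, edgeR adjusted p = 0.0579). Its groups were well apart although the test was missed. B3gnt9 had 17 and 93 counts in LISC and 7 and 14 counts in SISC (log2 difference 2.34 ± 0.72, edgeR adjusted p = 0.234). B3gnt3, which extends core 1 and had the highest mean TPM of this group, was read at 105 and 111 CPM in LISC and at 84.5 and 69.1 CPM in SISC (log2 difference 0.49 ± 0.27, edgeR adjusted p = 0.611).

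Of the beta-1,4-galactosyltransferases, several of which complete N-acetyllactosamine units, 6 of 7 were tested and 0 passed the adjusted threshold in edgeR with the filter. B4galt1 and B4galt4, both higher in LISC, were the 2 at an unadjusted p below 0.05 (all genes 8.73%). DESeq2 and edgeR without the filter called both. B4galt1, the broadly acting member, was read at 124 and 89.2 CPM in LISC and at 51.7 and 37.9 CPM in SISC (log2 difference 1.25 ± 0.33, edgeR adjusted p = 0.167). B4galt4 was read at 23.4 and 32.7 CPM in LISC and at 10.6 and 10.4 CPM in SISC (log2 difference 1.42 ± 0.28, edgeR adjusted p = 0.0945). For both, each LISC library was above each SISC library. B4galt3 had the highest mean TPM of its group, at 48.2 and 35.4 CPM in LISC and 48.0 and 43.5 CPM in SISC, and its log2 difference of −0.13 ± 0.27 turned to 0.09 without LISC replicate 2. B4galt1 held 33.1% and 28.3% of the group's TPM in LISC and 19.0% and 16.7% in SISC, while B4galt3 held 28.5% and 25.8% in LISC and 43.3% and 43.7% in SISC. The member with the highest mean TPM of all 103 was B4galnt2, which adds beta-1,4-linked GalNAc to sialylated chains and makes the Sda antigen and the ligand of Dolichos lectin on mouse gut epithelium. It was read at 88.0 and 199 TPM in LISC and at 76.5 and 109 TPM in SISC, and its log2 difference in CPM was 0.59 ± 0.29 (edgeR adjusted p = 0.537).

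Several fucosyltransferases form Lewis and H structures at chain ends, while Fut8 puts fucose on the N-glycan core. Fut9, an alpha-1,3-fucosyltransferase that makes the Lewis x structure, had 61 and 149 counts in LISC and 0 counts in both SISC libraries. Its level was 5.65 and 5.12 CPM in LISC, at least 34.5-fold above that of 3 counts in each SISC library (edgeR adjusted p = 0.0403). Its call was lost without LISC replicate 2 (edgeR adjusted p = 0.0506). Its level per length was low, at 0.29 and 0.55 TPM in LISC, 0.814% and 0.612% of the summed TPM of the Fut family. Fut4, which also makes Lewis x, was read at 34.1 and 42.9 CPM in LISC and at 17.8 and 12.7 CPM in SISC (log2 difference 1.35 ± 0.29, edgeR adjusted p = 0.117). Fut2, the alpha-1,2-fucosyltransferase known for the H antigen of gut secretions, had 377 and 1247 counts in LISC and 25 and 1 counts in SISC. The fitted log2 difference of 5.61 ± 1.38 had an edgeR adjusted p of 0.150, and the differences within replicate numbers were 4.24 and 9.84. The SISC libraries stood far apart from each other, and both lay below both LISC libraries. Fut2 was called without SISC replicate 1 (log2 10.05, edgeR adjusted p = 0.00517) and without SISC replicate 2 (log2 4.39, adjusted p = 0.0197), and by limma with either pseudocount. Fut1, the second H enzyme, was read at 7.13 and 6.87 CPM in LISC and at 1.16 and 0.281 CPM in SISC (log2 difference 3.34 ± 0.80, edgeR adjusted p = 0.141). Fut8 had a log2 difference of 0.21 ± 0.29 (edgeR adjusted p = 0.957) that turned to −0.06 without LISC replicate 2. Per length, Fut2 held 26.2% and 26.7% of the Fut family's TPM in LISC and 1.93% and 0.0267% in SISC, and Fut8 held 46.3% and 48.7% in LISC and 74.3% and 78.3% in SISC.

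Sialyltransferases are grouped by the linkage they make. St6gal1, which adds alpha-2,6-linked sialic acid to N-acetyllactosamine ends, was read at 11.3 and 20.6 CPM in LISC and at 1.46 and 1.0 CPM in SISC. Each LISC library was above each SISC library, and the log2 difference was 3.72 ± 0.48 (edgeR adjusted p = 0.0403), or 2.93 and 4.34 within replicate numbers 1 and 2. The call of St6gal1 was lost without LISC replicate 2 (log2 3.22, edgeR adjusted p = 0.102), without SISC replicate 2 (log2 3.42, adjusted p = 0.0619) and with limma on log2(TPM + 1) (log2 1.84, limma adjusted p = 0.133) or on log2(TPM + 0.1) (log2 3.23, limma adjusted p = 0.241). The 4 tested St3gal members, whose enzymes add alpha-2,3-linked sialic acid, all had a log2 difference below 0. Of all genes, 48.0% lay above 0. DESeq2 and edgeR with the filter called 0 of the St3gal members higher in SISC. St3gal1 (log2 difference −0.51 ± 0.83) and St3gal3 (−0.10 ± 0.31) overlapped between the groups. St3gal4 and St3gal6 had an unadjusted p below 0.05, and edgeR without the filter called both. St3gal4 was read at 3.24 and 8.18 CPM in LISC and at 22.0 and 12.6 CPM in SISC (log2 difference −1.57 ± 0.55, edgeR adjusted p = 0.309). St3gal6 was read at 10.5 and 20.4 CPM in LISC and at 26.6 and 40.8 CPM in SISC (log2 difference −1.12 ± 0.43, edgeR adjusted p = 0.358), and 1603 of its 6172 exon bases lie opposite to exons of Dcbld2. For both genes the SISC libraries were above the LISC libraries. Their summed level with the other St3gal members was 15.5 and 40.3 TPM in LISC and 43.8 and 53.7 TPM in SISC. St6galnac2, which sialylates the GalNAc of O-glycans, had the highest mean TPM of the alpha-2,6 group, and its 2 gene IDs, which share 383 exon bases, summed to 106 and 94.6 CPM in LISC and to 115 and 159 CPM in SISC. The alpha-2,8 family St8sia was at the limit of detection. None of its 7 members passed the filter, and the highest count of any in a library was 4, so differences were not detectable at this depth. St8sia4, the polysialic acid enzyme, had 0 and 2 counts in LISC and 2 and 2 counts in SISC.

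Among the 14 sulfotransferases of the Chst family, Chst4 was the 1 member called by edgeR with the filter. DESeq2 also called Chst8 and Chst15, and edgeR without the filter Chst8 and, higher in SISC, Chst2. Chst4 sulfates GlcNAc at carbon 6 and is known from the L-selectin ligands of lymph node venules and, in the mouse, from colonic mucins. It was read at 55.3 and 67.4 CPM in LISC and at 3.78 and 1.69 CPM in SISC. Both LISC libraries were far above both SISC libraries, and the log2 difference was 4.52 ± 0.48 (edgeR adjusted p = 0.0269), or 3.86 and 5.31 within replicate numbers 1 and 2. It was 5.17 without SISC replicate 1. Chst4 kept its call in each alternative run, those that leave out a library included, and was, with Gcnt3, one of the 2 members still called without LISC replicate 2. Chst8, known for sulfating GalNAc on pituitary hormones, had 47 and 78 counts in LISC and 0 counts in both SISC libraries, which makes it at least 22.6-fold higher in LISC, with an edgeR adjusted p of 0.0593. Chst15, which adds a second sulfate to GalNAc of chondroitin, had 96 and 291 counts in LISC and 42 and 106 counts in SISC (log2 difference 1.57 ± 0.35, edgeR adjusted p = 0.123). Chst2, a further GlcNAc sulfotransferase, had the opposite sign, with 0 and 12 counts in LISC and 28 and 83 counts in SISC (log2 difference −3.24 ± 1.22, edgeR adjusted p = 0.353). Per length, the family summed to 28.3 and 61.5 TPM in LISC and to 5.47 and 5.34 TPM in SISC, and Chst4 took most of it in LISC.

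The 10 Mgat members branch N-glycans. Over the 7 tested the median log2 difference was 0.03, and edgeR with the filter called 0 in either direction. An unadjusted p below 0.05 was reached by 2, both higher in LISC (all genes 8.73%). Mgat4c was called by DESeq2 (log2 4.16), by edgeR without the filter (log2 4.26), by limma with either pseudocount, and without LISC replicate 1 (log2 4.88) or SISC replicate 1 (log2 5.30). Mgat3, which adds the bisecting GlcNAc, was read at 65.6 and 62.7 CPM in LISC and at 37.4 and 26.5 CPM in SISC (log2 difference 1.01 ± 0.28, edgeR adjusted p = 0.197). Mgat4c, related to the GlcNAc-transferase IV enzymes, had 98 and 958 counts in LISC and 25 and 17 counts in SISC (log2 difference 4.25 ± 0.93, edgeR adjusted p = 0.119). LISC replicate 2 held most of the reads of Mgat4c, and both LISC libraries were above both SISC libraries. Mgat4b, the member with the highest mean TPM, was read at 194 and 179 CPM in LISC and at 124 and 97.9 CPM in SISC (log2 difference 0.75 ± 0.30, edgeR adjusted p = 0.383). Mgat1 and Mgat2, which start the first and the second antenna, had log2 differences of −0.10 ± 0.24 and 0.03 ± 0.23, and Mgat5 one of −0.02 ± 0.33.

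Replicates of a group also differed from each other. Between the SISC libraries, 12 of 57 members with at least 10 summed counts differed by more than 2-fold, and 11 of these were higher in replicate 1, Fut2, St6galnac4, Mgat4c, Gcnt3 and Chst4 among them. Between the LISC libraries, 8 of 61 members differed by more than 2-fold, 6 of them higher in replicate 2. SISC replicate 1 also had the higher sums of goblet and Paneth markers among the SISC libraries, and Muc2, the main gel-forming mucin of goblet cells, was read at 1045 and 1147 CPM in LISC and at 358 and 17.1 CPM in SISC. Reg4 and Kit, markers of deep crypt secretory cells of the colon, summed to 658 and 2854 CPM in LISC and to 106 and 25.5 CPM in SISC. The part of these cell types in the differences of the transferases was not tested. Of the 62 tested members, 52 had the same sign within both replicate numbers (83.9%, all genes 69.2%), and the median log2 difference was 0.38 within replicate number 1 and 0.81 within replicate number 2, where the median of all genes was 0.00 within each.

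**Figure D4:**
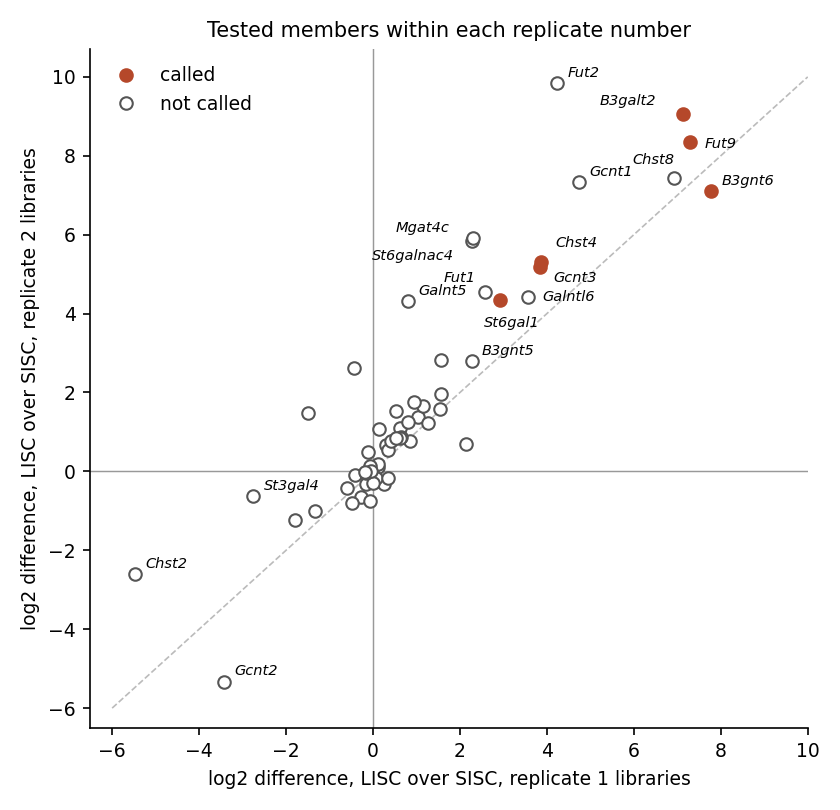
Log2 difference of LISC over SISC for each tested member between the replicate 1 libraries (x axis) and between the replicate 2 libraries (y axis), with 0.5 added to each count. Filled points are the 6 called members, open points the others, and the dashed line marks equal values. The called members lie in the upper right, at 2.93 or more within replicate number 1, and Fut2, Mgat4c and Galnt5 lie far above the line. Points of genes with a library at 0 counts depend on the 0.5 added.

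The genes around the transferases were read from 11 lists of 114 genes for donor sugars and sulfate, transporters, glycosaminoglycan chains, mucins and glycan removal. Of 97 tested, edgeR called 3 higher in LISC (all genes 1.45%) and 0 higher in SISC (all genes 0.741%). At an unadjusted p below 0.05 in edgeR, 24 were higher in LISC (all genes 8.73%) and 3 higher in SISC (all genes 4.67%). DESeq2, over 109 of the genes, called 16 higher in LISC (all genes 3.20%) and 0 higher in SISC (all genes 1.60%). Papss2, which makes the sulfate donor used by every Chst enzyme, was read at 356 and 706 CPM in LISC and at 4.73 and 3.44 CPM in SISC, 130-fold higher in LISC with a log2 difference of 7.03 ± 0.59 (edgeR adjusted p = 0.0202). Cmah, which converts the sialic acid Neu5Ac to Neu5Gc in the mouse, had 335 and 1025 counts in LISC and 2 and 0 counts in SISC, a ratio of 780 on pooled counts with an exact 95% interval of 216 to 6448, which covers counting error only (edgeR adjusted p = 0.0218). Slc35a1, which carries the activated sialic acid into the Golgi, was read at 210 and 180 CPM in LISC and at 23.4 and 29.3 CPM in SISC (log2 difference 2.89 ± 0.31, edgeR adjusted p = 0.0269). Its call was lost without SISC replicate 1 (edgeR adjusted p = 0.0576) or SISC replicate 2 (adjusted p = 0.0638). For Papss2, Cmah and Slc35a1, each LISC library was far above each SISC library.

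Of all genes tested, 48.0% had a log2 difference above 0 and 1.45% were called higher in LISC. By list, the 6 sialic acid donor genes all had a log2 difference above 0, with a median of 2.00 and 2 called higher in LISC. Nans, the sialic acid synthase with the highest mean TPM of the list, was read at 205 and 328 CPM in LISC and at 68.4 and 78.4 CPM in SISC (edgeR adjusted p = 0.0937). Of 14 tested UDP-sugar genes 11 were above 0, with a median of 0.92. Both tested core 1 genes were above 0, and C1galt1c1, the chaperone of core 1 synthase, had a log2 difference of 0.97 ± 0.33, with an edgeR adjusted p of 0.298. Of the 9 tested mucin and mucus genes 7 were above 0, and Muc2, with the highest mean TPM, had a log2 difference of 2.55 ± 1.34, with an edgeR adjusted p of 0.578. The fucose donor genes had a median of 0.66 over 6 tested, with Gmds at 0.77 ± 0.42 (edgeR adjusted p = 0.597). Medians lay close to 0 for the 8 N-glycan trimming genes (0.05) and the 14 genes of O-fucose, O-mannose and other short chains (0.03). In the other lists the gene with the highest mean TPM was Fuca1 for glycan removal (log2 0.45), Ext2 for glycosaminoglycan chains (log2 0.33) and Ogt for the short chains (log2 −0.35), and Ganab of N-glycan trimming had a log2 difference of 0.01.

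**Figure D5:**
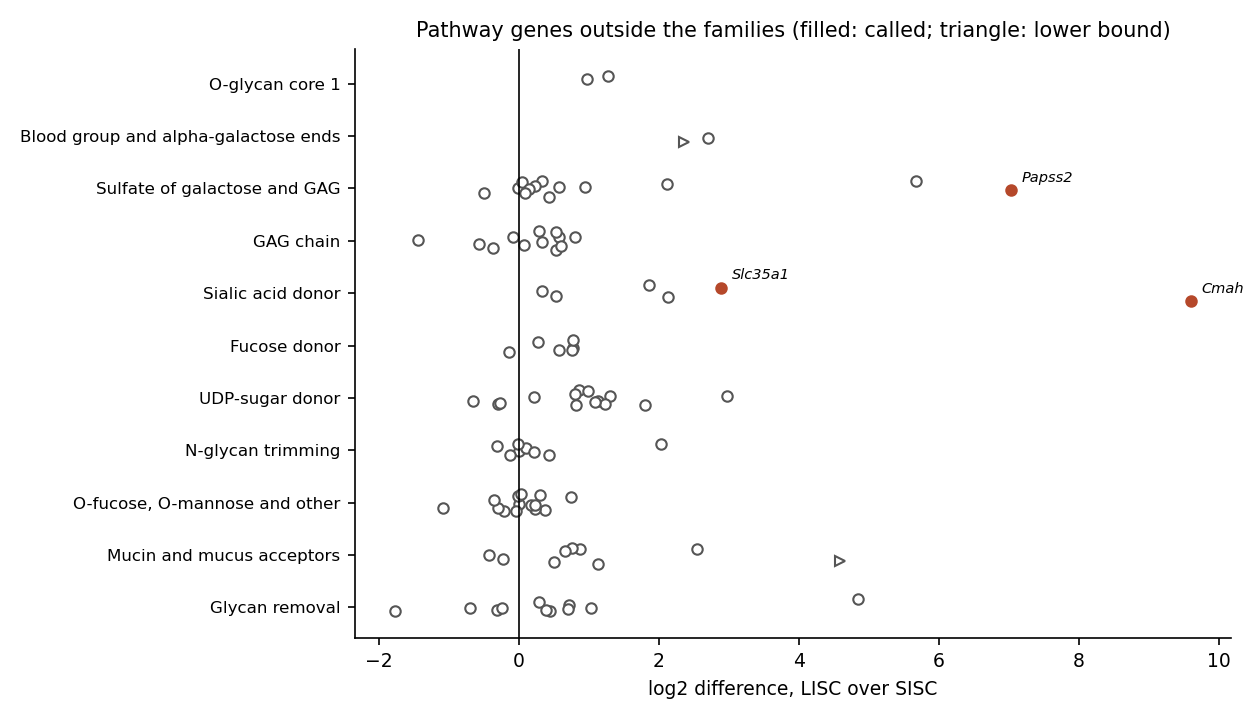
Log2 difference of LISC over SISC for the 97 tested genes outside the families, by list. Filled points passed an adjusted p below 0.05 in edgeR, triangles are lower bounds for genes with 0 counts in SISC, and Cmah is drawn at the log2 of its ratio of pooled counts. Papss2 lies to the right of the other genes of its list, and Cmah and Slc35a1 to the right of the other sialic acid donor genes, and the N-glycan trimming list, other than Man1c1 at 2.04, and the list of O-fucose, O-mannose and other enzymes, other than B3glct at −1.08, gather near 0.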

How the data were processed

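Poly(A) RNA from 2 LISC and 2 SISC libraries was made into strand-marking libraries, per the labels' protocols. The submitters' processing notes name STAR 2.7.2b, RSEM 1.2.31 and the build GRCm38 (mm10). Not given in the sources used here were annotation release, strand option and trimming. Expected counts per gene, as the authors deposited them, come from RSEM, which shares out reads of several genes by estimated abundance. The authors also deposited TPM, scaled by effective gene length, and RSEM's posterior standard deviation of each count, which exceeded 1% of the count for 5 members.

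Of 55487 gene IDs, 55227 matched GENCODE vM21 and 260 did not. Groups and replicate numbers come from the sample titles. Expected counts were rounded and compared by the quasi-likelihood test of edgeR 4.0.16 (R 4.3.3), with TMM factors and no term but group. The filter filterByExpr (minimum count 10) left 14165 genes, over which p-values were adjusted by Benjamini-Hochberg, and genes below 0.05 were called. The common biological coefficient of variation was 43.4%. Standard errors are the log2 difference divided by the square root of F. For a gene with no SISC count, a lower bound of the fold was taken against 3 counts per library, which are 0.278 and 0.103 CPM in LISC and 0.218 and 0.0937 CPM in SISC. Bounds and intervals cover counting error only. Within each group, neither library was a copy of the other. At a summed count of 20 or more, genes, rRNA included, gave 833 in LISC and 892 in SISC as chi-square divided by its degrees of freedom. Libraries of different groups were not compared in this way. Differences within a replicate number have 0.5 added to each count.

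Alternatives were DESeq2 1.42.0 and its size factors, no filter on low counts, at least 10 counts in 2 libraries, limma 3.58.1 on log2(TPM + 1) and log2(TPM + 0.1) for genes with a TPM of at least 1, removal of rRNA genes, a block on replicate number, and leaving out each library. The fits were also run on simulated counts. Their random spread was set below the common biological coefficient of variation of these data. The simulation therefore does not show how the fits perform here.

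The members, role groups, pathway lists and markers were chosen with earlier results of these data known. Values per library are given for members with an adjusted or unadjusted p below 0.05 and for the member with the highest mean TPM in each role group, and, outside the families, for called genes and the gene with the highest mean TPM per list. Other genes given with values were chosen after their values were seen. Promoter sequences are from RefSeq, and protein sequences were not used here.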

Additional observations from a re-analysis of the deposited data

How the results depend on the processing

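With 2 libraries per group, no difference could be tested within a replicate number, and low members such as the St8sia genes were limited by depth. The median log2 difference of the tested members stayed within 0.42 to 0.83 over all alternatives, against 0.65. Members called higher in LISC (6) numbered 19 with no filter on low counts and 18 with DESeq2, and 2 to 12 when 1 library was left out. Members called higher in SISC (0) numbered 5 with no filter and 2 with DESeq2, and 0 with each library left out. Pathway genes outside the families called higher in LISC (3) numbered 15 with no filter, 16 with DESeq2, 1 with limma on either pseudocount, and 3 to 6 with 1 library left out. Those called higher in SISC (0) numbered 2 with no filter.

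The labels give the groups shared replicate numbers but no pairing. Deviations of the replicate 1 libraries from their group means had a correlation of 0.634 across genes, which with 2 numbers does not show a pairing by design. With a replicate block, 23 members were called higher in LISC (7.17% of all genes) and 3 higher in SISC (3.70% of all genes), and 24 and 2 pathway genes. Of members outside the 6, the block called Galnt4, Galnt10, Galnt12, Galntl6, Gcnt1, B3gnt5, B4galt1, B4galt4, B4galt5, Fut1, Fut2, Fut4, Chst8, Chst15, Mgat3, Mgat4b and Mgat4c higher in LISC, and Gcnt2, Gcnt4 and St3gal6 higher in SISC.

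Of the values of single genes, 340 of 415 kept their direction and their side of the threshold, 58 passed it only in the alternative, 15 no longer passed it, and 2 changed sign. These were B4galt3, at −0.37 to 0.09, and Fut8, at −0.06 to 0.44, when 1 library was left out, with the change of sign in both without LISC replicate 2. For these the cause was not tested.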

Other observations

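A few further members had replicates far apart. St3gal1, an alpha-2,3-sialyltransferase of core 1 chains, was read at 10.5 and 13.5 CPM in LISC and at 29.7 and 4.84 CPM in SISC, with a log2 difference of −1.50 within replicate number 1 and of 1.48 within replicate number 2. B3gnt7, a GlcNAc-transferase of sulfated poly-N-acetyllactosamine chains, was read at 5.56 and 10.2 CPM in LISC and at 7.49 and 1.66 CPM in SISC, with −0.43 and 2.61 within replicate numbers 1 and 2. St6galnac4 had 85 and 181 counts in LISC and 22 and 3 counts in SISC (log2 difference 3.14 ± 1.24, edgeR adjusted p = 0.383). Galnt5 had 112 and 621 counts in LISC and 81 and 34 counts in SISC (log2 difference 2.23 ± 0.88, edgeR adjusted p = 0.384).

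Several pathway genes outside the families missed the threshold by little. Gne, which starts sialic acid synthesis, was read at 269 and 299 CPM in LISC and at 73.7 and 55.2 CPM in SISC (edgeR adjusted p = 0.0536). Ugdh, which makes UDP-glucuronic acid, was read at 155 and 311 CPM in LISC and at 25.2 and 34.1 CPM in SISC (edgeR adjusted p = 0.0580). Slc26a2, a sulfate transporter of the cell membrane, was read at 123 and 190 CPM in LISC and at 35.9 and 36.2 CPM in SISC (edgeR adjusted p = 0.0586). Hs3st3b1, a heparan sulfate 3-O-sulfotransferase, had 114 and 335 counts in LISC and 6 and 2 counts in SISC (edgeR adjusted p = 0.0596). The mucin gene Muc16 had 26 and 149 counts in LISC and 0 in both SISC libraries (edgeR adjusted p = 0.0647). These genes were chosen after their values were seen.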
